A study of Oryza sativa with 3 samples.

Results

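Growth-regulating factors, written GRF, are plant transcription factors with a QLQ domain, which binds coactivators of the GIF type, and a WRC domain, which binds DNA. They promote cell proliferation in young leaves, stems and grain, and the microRNA miR396 cuts the transcripts of most members. Here the rice genes named GRF1 to GRF10 were followed in the shoot tip. A gene was taken when its symbol or a synonym, without the prefix Os, was one of these 10 names, and its probe sets were those that the platform annotation pairs with that gene alone. This gave 8 genes, GRF1, GRF3, GRF4, GRF5, GRF6, GRF7, GRF8 and GRF10, of 17905 genes with a probe set. GRF10 was read by 2 probe sets and each other gene by 1, which makes 9 of 57258 probe sets without controls. No gene matched the names GRF2 and GRF9, and these were not analysed here.

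RNA came from the shoot-tip of the cultivar Hitomebore, a temperate japonica rice, in 3 samples that the labels call biological replicates. They form 1 group, CK shoot, an abbreviation the labels do not explain. After 2 days of germination in darkness at 28 °C, seedlings grew in a greenhouse for about 48 h (26 °C, days of 16 h light and nights of 8 h). The growth protocol speaks of a further genotype, which is not analysed here. No treatment, mutation or transgene is named for these samples, and neither is the number of plants per sample. With 1 group the design compares no conditions, so the questions that it allows are whether each factor gave signal above background and how far the samples agreed.

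Values are log2 probe set values after robust multi-array averaging (RMA) and span 2.93 to 14.71 over the 3 arrays. The highest of 17 Tag control probe sets on each array was taken as the ceiling of background, at 4.98, 4.88 and 4.97 on replicates 1, 2 and 3. Markers of green leaf were above it (5 of 5, with array medians of 12.18, 12.25 and 12.07), as were 3 of 5 shoot apex markers, namely OSH6, YAB1 and YAB6, on every array. The meristem gene OSH1 was above it on replicates 1 and 3 only. DL, the remaining shoot apex marker, read 4.96, 5.70 and 5.71 and was above it on replicates 2 and 3 only. Of 3 root markers, LSI1 and NRAMP5 were above it on all arrays, and LSI2 was below it. Grain storage protein genes stood apart on replicate 2: all 5 read highest there, as did 4421 of all 17905 genes. The array medians of these 5 genes were 4.40, 7.21 and 3.94. On replicate 3 the 4 control probe sets for 18S, 25S and 28S ribosomal RNA averaged 9.59, against 12.05 and 11.73 on replicates 1 and 2.

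All 8 growth-regulating factors gave signal above background in the shoot tip on every array. The same held for 81.3% of all genes, so the count does not set the family apart. The lowest reading of any member was 7.82 and the highest 10.50. In the variance test of limma, which asks whether a probe set varied more between arrays than others of its level, no member passed, with adjusted p-values of 0.94 to 1.0 (Benjamini-Hochberg over 57258 probe sets, n = 3). No probe set of the array passed it either (0% called), and 2.43% had an unadjusted p under 0.05, none of them a member. Probe sets differ in affinity, so a higher value of one gene than of another does not rank their RNA. In whole shoot tips, fewer cells that use a gene and less RNA per cell cannot be told apart.

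**Figure D1:**
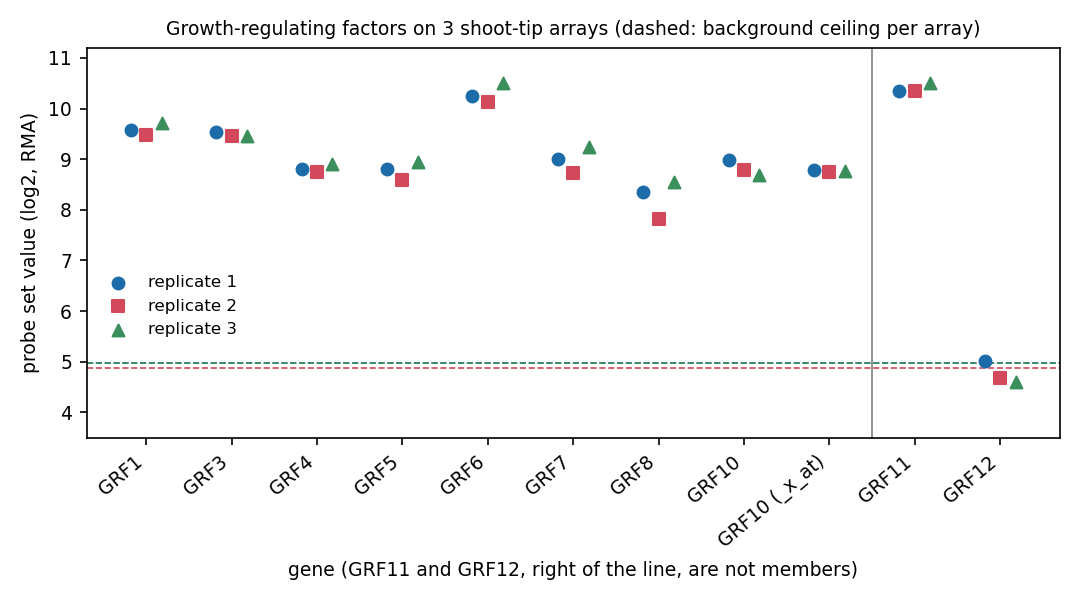
Deposited log2 values (vertical axis) of each GRF probe set on the 3 arrays, with 1 symbol per replicate and 1 dashed line per array for the background ceiling. All 8 member genes lie between 7.82 and 10.50, above every line, while GRF12, which is no member, lies at the lines.

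GRF4 and GRF6 are the members best known for yield traits. GRF4, whose synonyms in the reference include GS2, GL2 and PT2, is a grain size gene that also promotes nitrogen uptake and use. GRF4 (LOC4330436) read 8.81, 8.74 and 8.90 on replicates 1, 2 and 3, with a mean of 8.82 ± 0.08 (SD, n = 3; 95% interval 8.66 to 8.98). The arrays lay close together, within 1.11-fold of each other, and on each of them GRF4 was at least 14.2-fold above the ceiling. GRF6, a factor that acts in panicle branching, gave 10.25, 10.12 and 10.50 (LOC4333990, mean 10.29 ± 0.19, SD, n = 3; 95% interval 10.09 to 10.49). Replicate 3 was highest and replicate 2 lowest, 1.30-fold apart.

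GRF1 was first described as a gibberellin-induced gene of the internode of deepwater rice. GRF1 (LOC4330903) read 9.58, 9.48 and 9.71, with a mean of 9.59 ± 0.12 (SD, n = 3; 95% interval 9.43 to 9.75). The highest array, replicate 3, was 1.17-fold above the lowest, replicate 2. GRF5 (LOC4339928), for which RefSeq lists 7 transcripts, read 8.80, 8.59 and 8.94 (mean 8.77 ± 0.18, SD, n = 3; 95% interval 8.56 to 8.98), with the same order of arrays and a range of 1.28-fold.

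GRF3 and GRF10 are known in rice to bind and repress a KNOX homeobox gene, and both differed from the other members in their order of arrays. GRF3 (LOC4336879) read 9.53, 9.46 and 9.46, the least spread of the 8 genes (mean 9.48 ± 0.04, SD, n = 3; 95% interval 9.35 to 9.62). GRF10 (LOC4330314) read 8.98, 8.78 and 8.69 from its brighter probe set (mean 8.82 ± 0.15, SD, n = 3; 95% interval 8.63 to 9.01). Here replicate 1 was highest and replicate 3 lowest, 1.22-fold apart. The second GRF10 probe set, of the _x_at kind, whose probes can bind transcripts of other genes, read 8.78, 8.75 and 8.76 with an SD of 0.02. The order of arrays seen with the first probe set was therefore not seen with the second, which put replicate 2 lowest by 0.01 log2 below replicate 3. The probe sets of GRF3 and GRF7 carry the letter A in their identifiers where the others carry S, and which strand they read was not tested.

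GRF7 and GRF8 varied most between the samples. GRF7 shapes plant architecture, and its reported targets in rice include an enzyme gene of gibberellin metabolism and an auxin response factor gene. GRF7 (LOC9268363) read 9.01, 8.72 and 9.25 (mean 8.99 ± 0.27, SD, n = 3; 95% interval 8.72 to 9.26), a range of 1.44-fold. GRF8, known for a part in planthopper resistance, read 8.35, 7.82 and 8.55 (LOC4350711, mean 8.24 ± 0.38, SD, n = 3; 95% interval 7.88 to 8.60). On replicate 2 GRF8 was 7.65-fold above the ceiling, the smallest margin of any member on any array, and replicate 3 read 1.66-fold above replicate 2.

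The SD of the 8 genes ran from 0.04 for GRF3 to 0.38 for GRF8, with a median of 0.16 against 0.12 over all genes. Genes differ in spread with their level, so all genes were put in 10 equal bins by mean level and each member was set against its own bin. There the SD of GRF8 exceeded that of 97.7% of 1791 genes, that of GRF7 96.0% and that of GRF6 92.4% of 1790 genes each, while GRF4 and GRF3 exceeded only 26.3% and 12.3%. Of the 8 members, 6 were above the median SD of their bin. GRF8 had the lowest unadjusted p of the members in the variance test of limma, 0.053 (adjusted p = 0.94), so none of these spreads passed.

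**Figure D2:**
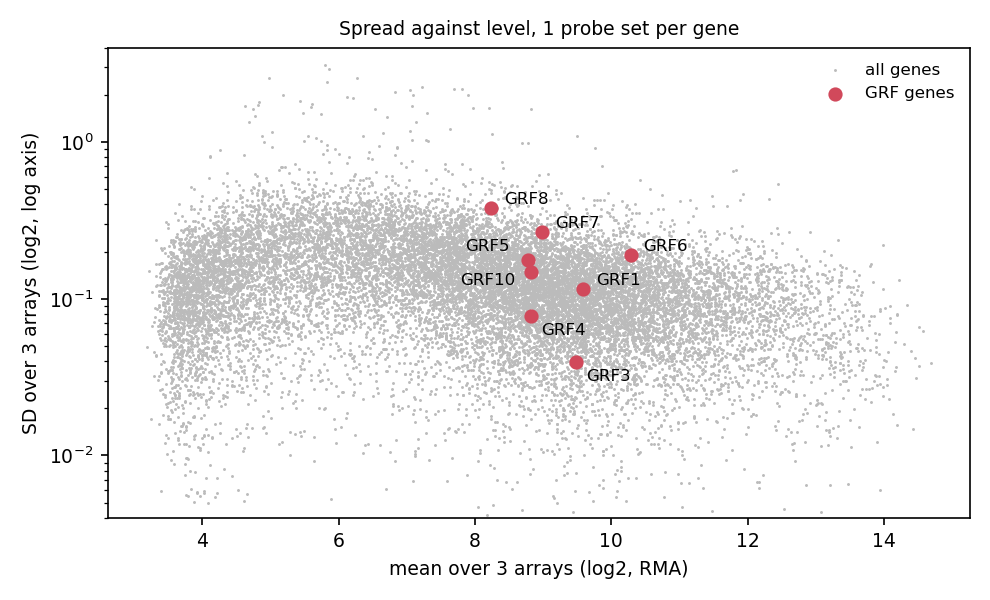
SD over the 3 arrays (vertical log axis) against the mean log2 value (horizontal axis), 1 grey point per gene and 1 red point per member. GRF8 (SD 0.38), GRF7 (0.27) and GRF6 (0.19) lie in the upper part of the genes of like level. GRF3 (0.04) lies low in the cloud. Of all genes, 83 with an SD under the axis are not drawn.

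The members shared a lower reading on replicate 2 than on replicate 1 but not the direction of replicate 3. All 8 read lower on replicate 2 than on replicate 1, by 0.07 to 0.53 log2, as did 47.3% of all genes and 52.5% of the 8952 genes in the 5 level bins that hold members. For 6 of the 8, namely GRF1, GRF4, GRF5, GRF6, GRF7 and GRF8, replicate 2 was lowest and replicate 3 highest, an order that 23.8% of all genes and 28.1% of those in the same bins had. Taken singly, replicate 2 was lowest for 36.2% of all genes and 42.1% of those in the same bins, and replicate 3 highest for 49.9% and 53.5%. Replicate 3 read above replicate 1 for these 6 members, as for 64% of all genes and 65.3% of those in the same bins. No member differed by over 1 log2 between any 2 arrays.

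A shift is here the difference of an array from the average of both other arrays. The median shift of the 8 genes was 0.03, -0.21 and 0.21 log2 on replicates 1, 2 and 3, where all genes had -0.04, -0.03 and 0.07. On replicate 2 the shift was -0.63 for GRF8, -0.41 for GRF7, -0.28 for GRF5 and -0.25 for GRF6. It was -0.17 for GRF1 and -0.11 for GRF4, and -0.06 for GRF10 and -0.03 for GRF3, which lay near the medians of their level bins (-0.05 for both). On replicate 3 it ran from -0.19 for GRF10 to 0.47 for GRF8. The 3 shifts of a gene sum to 0 and are not separate results. Between replicates 3 and 1 the median difference was 0.14 log2, with GRF3 (-0.07) and GRF10 (-0.29) lower on replicate 3. The samples that were low and high here were those in which grain storage genes (replicate 2, high) and ribosomal RNA controls (replicate 3, low) stood apart. Green leaf markers read highest on replicate 2 for 5 of 5 genes, with a median shift of 0.15, where 4421 of all 17905 genes did so. The part of these differences in the shifts of the GRF genes was not tested.

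**Figure D3:**
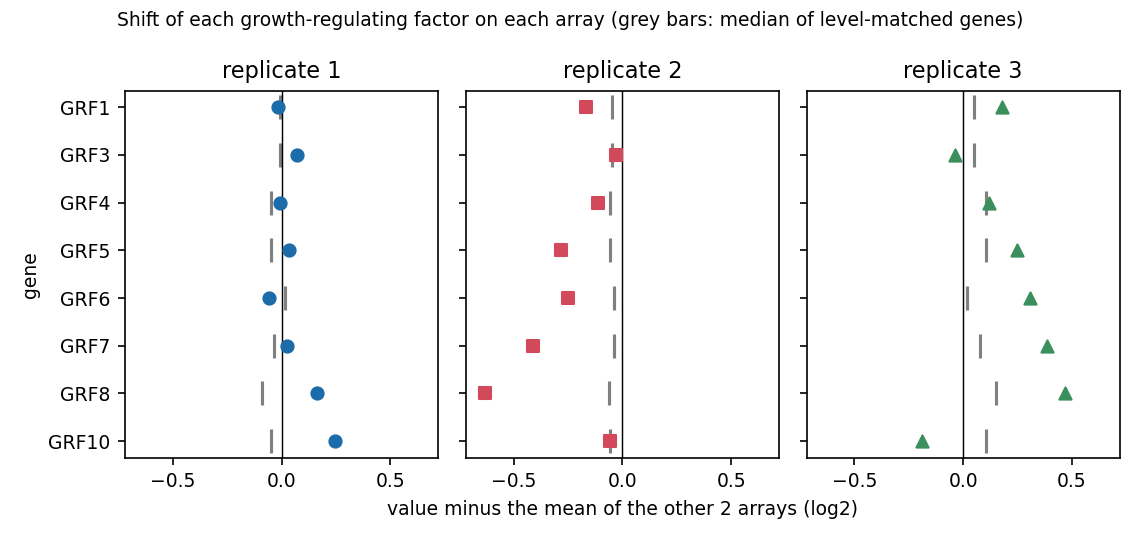
Difference of each member on an array from the average of both other arrays (horizontal axis, log2), 1 panel per replicate, with a grey bar at the median of all genes in the same level bin. On replicate 2 GRF8 (-0.63) and GRF7 (-0.41) lie farthest left, and on replicate 3 GRF10 (-0.19) and GRF3 (-0.04) are the members below 0.

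GRF11 and GRF12 belong to the same family but not to the names taken here. GRF11 (LOC4343178) read 10.35, 10.35 and 10.50, above the ceiling on all arrays, with replicate 3 highest as in 6 members. GRF12 (LOC4336731) read 5.01, 4.67 and 4.60 and was above the ceiling on replicate 1 alone, so the family was not uniformly above background in this tissue.

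MKB3, the one GIF coactivator of 3 that could be matched, had the order of arrays of GRF8 and a like range. That order held for 23.8% of all genes, and a relation between MKB3 and GRF8 was not tested. GIF proteins bind the QLQ domain and supply the activating function of the complex. MKB3 (LOC4334010) read 8.38, 7.88 and 8.75 (mean 8.34 ± 0.43, SD, n = 3), and its shift on replicate 2 was -0.68. It did not pass limma's variance test (unadjusted p = 0.033, adjusted p = 0.94). The symbol GIF1 in the reference names a cell wall invertase gene, so that entry was not used, and GIF2 and GIF3 were not analysed here.

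Genes of gibberellin and brassinosteroid signalling were above background for 3 of 3 matched of 4, as were 81.3% of all genes. SLR1, the DELLA repressor of gibberellin response, read 9.12, 9.29 and 9.38. GID1, the gibberellin receptor, read 9.82, 9.80 and 10.09 from its brighter probe set, while its other probe set, at 3.75, 3.81 and 3.65, lay below the ceiling. GSK2, a kinase of brassinosteroid signalling, read 8.37, 8.32 and 8.57. All 3 were highest on replicate 3, as were 49.9% of all genes. SLR1, unlike GID1 and GSK2, was not lowest on replicate 2.

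Of 20 genes reported as GRF targets in rice, 11 were matched. Of these, 8 were above the ceiling on all arrays, as were 81.3% of all genes. The histone demethylase gene JMJ706 read 8.41, 8.42 and 8.58, and the receptor kinase gene CR4 9.58, 9.72 and 9.73. ARF7 read 9.56, 9.52 and 9.59 and ARF12 10.77, 10.53 and 10.83, both auxin response factor genes. The highest array of these 4 was at most 1.23-fold above the lowest. The glutamine synthetase gene GS1.2 read 11.57, 11.67 and 11.39, and the ammonium transporter gene AMT1.1 9.11, 8.96 and 8.87 from its brighter probe set. Neither had the order of arrays of the 6 members. The other AMT1.1 probe set, at 4.51, 4.33 and 4.67, had that order but was below the ceiling on all arrays. YUCCA1, an auxin synthesis gene, read 5.82, 5.90 and 5.91 from an _x_at probe set, and its other probe set was below the ceiling.

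The KNOX genes among the targets differed between samples more than any GRF gene, but at values closer to the background ceiling. OSH1 (LOC4333973), a gene of the shoot meristem, read 6.25, 3.73 and 6.47 from its brighter probe set, with replicate 2 below background. Its other probe set, of the _x_at kind, read 5.76, 4.44 and 5.76, also below background on replicate 2. The range was 2.49-fold there, against 6.69-fold for the brighter probe set. OSH71 (LOC4337701) read 6.67, 4.93 and 6.24, with replicate 2 just above the ceiling of 4.88. Neither passed limma's variance test (adjusted p = 0.94 for both). GRF3 and GRF10, the reported repressors of OSH71, had shifts of -0.03 and -0.06 on the same array. The panicle gene MADS34 read 3.42, 3.46 and 3.47, below background on all arrays, and the nitrate transporter gene NRT2.3 read 4.68, 4.89 and 4.96, above it on replicate 2 alone.

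Argonaute genes of the AGO1 type, whose proteins carry microRNAs such as miR396, were all above background, as were 81.3% of all genes. AGO1A read 9.65, 9.63 and 9.77, AGO1B 11.23, 11.04 and 11.15, AGO1C 8.56, 8.51 and 8.76, and AGO1D 9.37, 9.27 and 9.46. With the brightest probe set of each gene, all 4 were lowest on replicate 2, as were 36.2% of all genes. Of them 3 were highest on replicate 3, as were 49.9% of all genes. Their median shift on replicate 2 was -0.14, and their range was narrower than that of GRF8, with a median SD of 0.09. The other AGO1B probe set read 8.15, 8.16 and 8.60 (SD 0.26), lowest on replicate 1 and highest on replicate 3. The other 5 genes of the microRNA list were not matched to a single gene.

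Cell division genes, matched for 6 of 10, were all above background, as were 81.3% of all genes. Their median shift was -0.18 on replicate 2 and 0.24 on replicate 3, beside -0.21 and 0.21 for the GRF genes. With the brightest probe set of each gene, the order with replicate 2 lowest and replicate 3 highest held for 2 of these 6 genes. It held for 6 of 8 GRF genes, for 23.8% of all genes and for 28.1% of genes in the level bins of the GRF genes. CDKB2-1, a cyclin-dependent kinase of mitosis, read 10.06, 9.72 and 10.02. The mitotic cyclin gene CYCB2-1 read 8.91, 8.74 and 9.05 and CYCA2-1 9.22, 9.16 and 9.44. PCNA, which holds DNA polymerase on its template, read 11.43, 11.25 and 11.32. Replicate 2 was lowest for these 4 and not for CYCB2-2, from its brighter probe set, and CYCD3-1, which were lowest on replicate 1. The other CYCB2-2 probe set, of the _x_at kind, read 8.34, 8.21 and 8.68. It was lowest on replicate 2 and highest on replicate 3, so the probe sets of this gene differed in order.

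**Figure D4:**
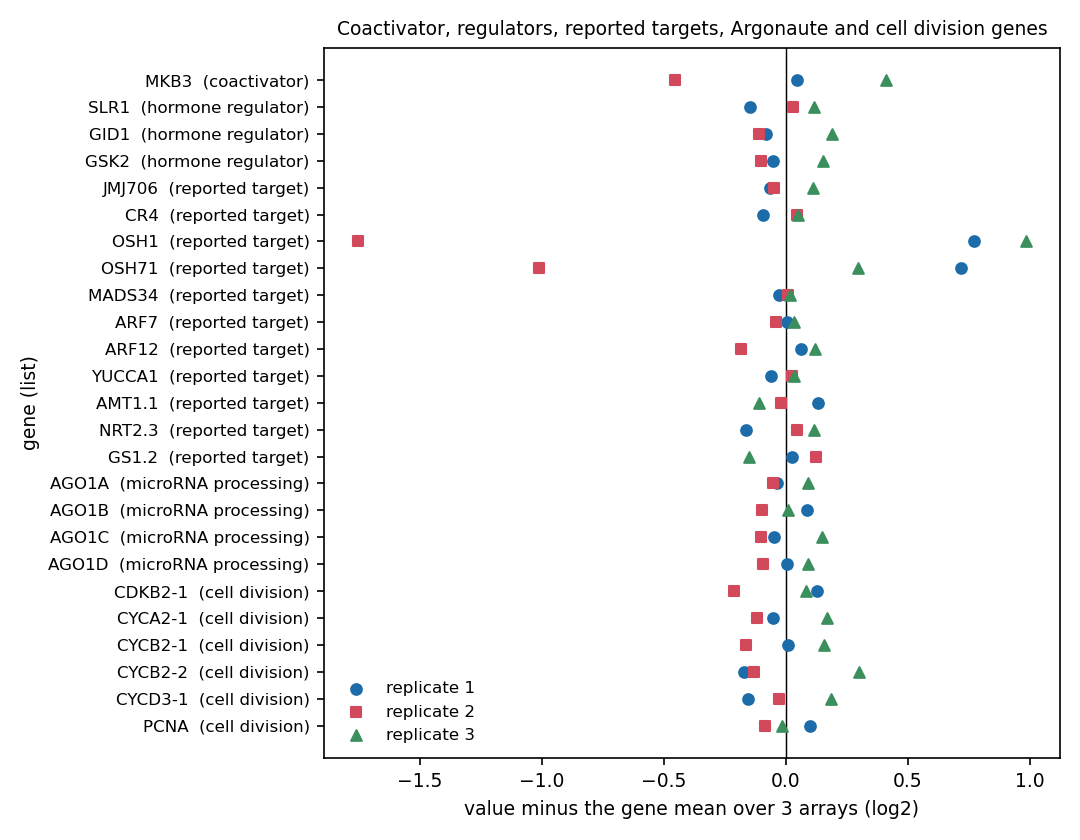
Deviation of each gene on each array from its own mean over the 3 arrays (horizontal axis, log2), with 1 symbol per replicate, for the coactivator, hormone, target, microRNA and cell division lists. OSH1 and OSH71 lie far to the left on replicate 2, MKB3 spans 7.88 to 8.75 as values, and most other genes stay within 0.30 of their mean.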

How the data were processed

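The submitters' processing notes name Affymetrix Expression Console and RMA, from which the authors deposited log2 values per probe set, and 6 ug of total RNA per sample was labelled with biotin, per the labels' protocols. Versions, settings and genome build are not given. The method removes background, equalizes the distributions of the arrays and summarizes probes, so differences in total RNA are removed and values near background are compressed. Of 57381 probe sets, 123 controls were left out, 22436 had 1 gene in the platform annotation and 95 several. Names came from gene symbols and synonyms of assembly ASM3414082v1. Its gene positions served only for the order of genes on a chromosome. No probe coordinates were used since the array's build is unknown. The probe set of highest mean stood for a gene. limma 3.58.1 in R 4.3.3 was fitted with an intercept and trended, robust eBayes, which gave the intervals and a variance test, an F test against the prior variance at the same level. It used the prior degrees of freedom of probe sets that do not stand out. It was tried on simulated data, but with added spreads far larger than those of the members. The simulation therefore does not show whether spreads of their size would be found. Shifts, counts and medians of lists are descriptions without a test. Genes were named by rule, as all members and all matched genes of lists, of which those matching several genes, no gene or no probe set were left out. Members and lists were chosen with earlier results of these data known. Alternatives were another probe set rule, no _x_at or _s_at probe sets, renewed quantile normalization, other ceilings, another eBayes setting, a filter on level and leaving out each replicate. With 3 arrays, the variance test of limma can miss even large differences in spread. The grain storage gene RAG2, with a 38.8-fold range over the arrays, did not pass it (adjusted p = 0.68). That no member passed therefore does not show that the members varied no more than other genes.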

Additional observations from a re-analysis of the deposited data

How the results depend on the processing

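Of 90 values recomputed under alternatives, 89 moved by less than the spread between replicates or, for counts, stayed within 1.5 times. The exception was the median shift on replicate 1, 0.03 log2, which was -0.14 without replicate 2 and 0.16 without replicate 3, since it is then set against a single array. Not all of the 89 could have moved. Each member but GRF10 has a single probe set, so other probe set rules left its values unchanged. Setting values below the ceiling to it changed nothing either, since every member value lay above it. The count of 89 therefore overstates how far stability was tried. The count of 8 members above background held under all 8 alternatives run for it, including the array median as ceiling and a ceiling raised by 1 log2. The median shift on replicate 2 ranged from -0.29 without replicate 1 to -0.16 without replicate 3, and was -0.17 after renewed quantile normalization. That on replicate 3 ranged from 0.14 without replicate 2 to 0.29 without replicate 1, and was 0.14 after quantile normalization. The median SD ranged from 0.12 without replicate 3 to 0.21 without replicate 1. The mean difference between the GRF10 probe sets, 0.06, ranged from -0.02 without replicate 1 to 0.12 without replicate 3. No member passed limma's variance test under any of the 6 alternatives run. Among probe sets above the median level, 51 of all probe sets passed, against 0 without that filter, where 1393 had an unadjusted p under 0.05. With that filter 1 member, GRF8, had an unadjusted p under 0.05 in limma's test (0.033, adjusted p = 0.97), against 0.053 without it. No paired analysis was possible because the labels give a single group.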

Other observations

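The abbreviation GRF is also used for general regulatory factors, the 14-3-3 adaptor proteins, which in rice are named GF14. None of them was taken in by the names used here. Of 8 such genes 5 were matched, and all were above the background ceiling on every array, as were 81.3% of all genes. GF14F read 13.67, 13.61 and 13.61 on replicates 1, 2 and 3, GF14C 13.41, 13.32 and 13.36, and GF14B 12.27, 12.16 and 12.08. Their median shift on replicate 2 was -0.03 and their median SD 0.05, against -0.21 and 0.16 for the growth-regulating factors. Most of these probe sets were brighter than those of the growth-regulating factors, so the SDs are not from genes of like level.

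In the gene order of assembly ASM3414082v1, GRF6 lies on the same chromosome as OSH1 and MKB3, with 17 and 26 annotated genes between them. There are 34 genes between GRF10 and AGO1A, 38 between GRF8 and GF14D, and 122 between GRF4 and GRF10. No relation between this order and the values was tested.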
